A study of Mus musculus with 24 samples.

Results

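This section follows 40 genes that encode the protein-folding machinery of the endoplasmic reticulum (ER) and the sensors that watch over it, in the cerebellum of mice without Derlin-1 or Derlin-2 in the nervous system. The genes were chosen by name, with earlier results of these data known. They covered BiP, GRP94 and their cofactors (10 genes), the calnexin cycle (3), and disulfide isomerases and oxidases (12). The others were prolyl isomerases (2), Manf and Creld proteins (4), and stress sensors with their transcription factors (9). All 40 were found among the 16935 genes tested, through the transcript that each array probe names, and each gene is read by its brightest probe. Those probes were well above background on all 24 arrays, except that of Cdnf, which was so on 23.

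Secreted and membrane proteins enter the ER unfolded. BiP, the ER's Hsp70, holds them with the help of J-domain cochaperones and nucleotide exchange factors, calnexin and calreticulin hold those that carry sugar chains, and protein disulfide isomerases join their cysteines. When unfolded protein accumulates, IRE1, PERK and ATF6 are activated: IRE1 splices the Xbp1 transcript, PERK raises translation of ATF4, and ATF6 is cut to release a transcription factor. Derlins are ER membrane proteins that help to pass misfolded proteins out of the ER for destruction by the proteasome.

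Total RNA of whole cerebellum was measured at postnatal day 28, with 2 arrays in each of 12 groups. In the knockouts (KO) floxed Derl1 or Derl2 was deleted by Cre under the nestin promoter, which acts in the precursors of neurons and of most glia, on a C57BL/6 background; controls were Derlin-1 or Derlin-2 flox/flox mice. Mice of the numbered Derlin-1 series and of the Derlin-2 line received 4-phenylbutyrate (4PBA), a chemical chaperone, at 200 mg/kg, or water as vehicle, daily into the peritoneal cavity from postnatal day 14 onwards. A lettered Derlin-1 series held controls and KO with 4PBA, at the same dose and from the same day. It also held controls and KO whose labels name neither 4PBA nor vehicle, called untreated here. Arrays without 4PBA are the vehicle and untreated arrays of both series, and Derlin-1 values are averaged over both series with equal weight. The labels do not say whether the 2 arrays of a group came from separate mice, so p-values measure the spread between arrays.

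Each of 3 slides held 8 arrays, 1 slide for each series, and with 4PBA and no 4PBA in different rows of a slide, and KO and control in different columns; slide position and group cannot be told apart. A level is the log2 intensity minus that of the 75th percentile of its array, so 75% of probes were dimmer than a level of 0. Spots well above background made up 57.7% to 68.4% of an array. The Derl1 probe, whose place relative to the deleted exons is not known here, did not separate the genotypes, so it does not check the Derlin-1 labels: without 4PBA its level was 0.89, 0.94, 1.22 and 0.84 in controls and 0.89, 0.70, 0.14 and 0.84 in KO arrays. Of the arrays, 1 went against its label at the deleted gene and 1 stood apart from its group. Results that rest on them are given with and without them. In the library labelled Derlin-2 KO vehicle 1 the Derl2 level was 1.72, above its 4 controls (1.40 to 1.58), while the 3 other Derlin-2 KO arrays lay between 0.18 and 0.48. In the library labelled Derlin-1 KO 4PBA b the level of Derl3, another gene of the family, was -2.27, within the range of the Derlin-1 controls (-3.14 to -1.69), while the 7 other Derlin-1 KO arrays lay between -0.63 and 0.37. Derl3 is not the deleted gene but one of ER-associated degradation that itself rose in Derlin-1 KO arrays, so its level there is part of the response and no independent check of the label. In the library labelled Derlin-2 KO vehicle 1 the Derl3 level was -1.85. The other Derlin-2 KO arrays had -0.61, -1.93 and -1.96, and the 4 controls -3.03 to -2.75. That library thus lay with the KO arrays at Derl3 and with the controls at Derl2.

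Sequences before the start of transcription were compared first, because the ER stress response element (ERSE) sets some of these genes apart from the rest of the genome. The element, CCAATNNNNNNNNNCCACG, joins a CCAAT box, which binds NF-Y, to a CCACG box that ATF6 and XBP1 bind once NF-Y is in place. RefSeq windows on the mouse build GRCm38.p6 were found for 34 of the 40 genes, and the 250 bases before each start were searched on both strands. The element was present in 8 of the 34 genes (23.5%) and in 35 of all 27025 genes with such a window (0.13%). The 9 elements of these 8 genes, with 20 bases on either side, are shown because all 8 genes were among those that rose in Derlin-1 KO cerebellum. Capitals mark the CCAAT and CCACG boxes, which read CGTGG and ATTGG where the element lies on the other strand, and Hsp90b1 has 1 element in each orientation.
Hspa5 (chr2:34772005-34772063, plus strand): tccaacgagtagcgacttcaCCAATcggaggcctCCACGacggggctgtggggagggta
Hsp90b1 (chr10:86705513-86705676, minus strand): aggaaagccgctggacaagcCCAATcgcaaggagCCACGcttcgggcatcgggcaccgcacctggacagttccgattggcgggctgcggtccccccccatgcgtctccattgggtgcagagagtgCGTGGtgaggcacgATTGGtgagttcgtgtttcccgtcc
Dnajc3 (chr14:118937807-118937865, plus strand): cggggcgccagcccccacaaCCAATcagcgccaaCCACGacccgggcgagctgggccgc
Calr (chr8:84847055-84847113, minus strand): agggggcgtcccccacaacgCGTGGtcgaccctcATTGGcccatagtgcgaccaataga
Canx (chr11:50325780-50325838, minus strand): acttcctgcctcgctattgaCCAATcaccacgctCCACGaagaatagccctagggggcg
Pdia6 (chr12:17266471-17266529, plus strand): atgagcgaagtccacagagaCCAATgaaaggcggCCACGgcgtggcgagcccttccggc
Ero1lb (chr13:12565662-12565720, plus strand): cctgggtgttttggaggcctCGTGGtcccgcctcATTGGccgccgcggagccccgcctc
Creld2 (chr15:88819500-88819558, plus strand): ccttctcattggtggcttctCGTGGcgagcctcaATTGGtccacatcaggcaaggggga

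Without 4PBA, 23 of the 40 genes rose in Derlin-1 KO cerebellum and none fell, at an adjusted p under 0.05 in limma; 28 had an unadjusted p under 0.05, all higher. Over all genes 10.6% passed in either direction, 5.26% passed as higher, and 13.0% were higher at an unadjusted p under 0.05. The median change of the 40 genes was 0.47 on the log2 scale, beside -0.01 over all genes, and 33 of the 40 were positive. On 21 of the 40 genes all 4 KO arrays lay above all 4 control arrays, which held for 5.31% of all genes. Array by array, the median of the 40 genes against the slide's own controls was 0.45 and 0.47 in the vehicle KO arrays and 0.46 and 0.47 in the untreated KO arrays. The control arrays with 4PBA, in both lines, lay between -0.12 and 0.09. Those without 4PBA form the reference, so on each slide their medians mirror each other around 0 by construction.

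**Figure D1:**
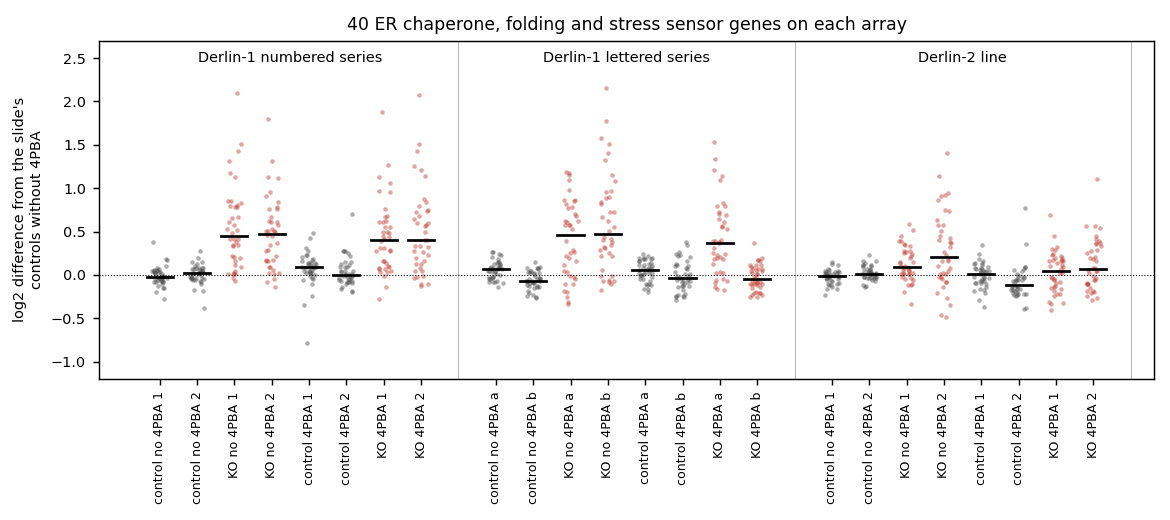
Log2 difference of each of the 40 genes (points) from the mean of its slide's controls without 4PBA, for each of the 24 arrays; red marks KO, grey marks controls, and bars are medians over the 40 genes. Medians of 0.37 to 0.47 are seen on 7 of the 8 Derlin-1 KO arrays, while the library labelled Derlin-1 KO 4PBA b lies at -0.04 and the Derlin-2 KO arrays lie between 0.05 and 0.21.

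The changes came in both Derlin-1 series. In the numbered series the median of the 40 genes was 0.47 and 37 were positive; in the lettered one these were 0.51 and 32. Tested within 1 series, with 2 arrays against 2, no gene of the 40 passed in the numbered series, where 0.0118% of all genes did, and 11 passed in the lettered series (3.54% of all genes). The difference between the series was itself tested, and none of the 40 genes differed at an adjusted p under 0.05 in limma (0.0059% of all genes did); 1 gene, Pdia5, was higher in the lettered series at an unadjusted p under 0.05, beside 1.27% of all genes. The widest gap among the called genes was that of Hyou1, whose change was 0.53 on the numbered and 1.35 on the lettered slide.

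Among BiP, GRP94 and their cofactors 7 of the 10 rose, with a median of 0.79. BiP itself, Hspa5, had levels of 4.35, 4.52, 4.28 and 4.18 in the 4 controls and 5.75, 5.55, 5.33 and 5.63 in the 4 KO arrays. The ranges did not overlap, and the change was 1.23 (SE 0.18, 2.35-fold, adjusted p 0.00242). Both other probes of Hspa5 gave 1.38 and 1.39. Sdf2l1, which works with BiP and its J-domain partner to keep clients soluble, rose most of all 40 genes. Its levels were -1.43, -1.13, -0.38 and -0.33 in controls and 0.82, 0.52, 0.80 and 1.80 in KO arrays, a change of 1.80 (SE 0.29, 3.49-fold, adjusted p 0.00341). The lettered controls lay above the numbered controls, and each series' KO arrays lay above its own controls.

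Hyou1, an exchange factor that renews BiP's cycle, was dim but well above background, with levels of -3.64, -3.08, -3.49 and -3.63 in controls and -2.78, -2.87, -2.38 and -2.05 in KO arrays. It changed by 0.94 (SE 0.19, adjusted p 0.0087), and its 2 other probes by 1.05 and 1.21. Among the J-domain proteins, Dnajc3 changed by 0.84 (SE 0.12, adjusted p 0.00242), from -0.31, -0.24, -0.07 and -0.33 to 0.52, 0.39, 0.62 and 0.88. Dnajb9, which also takes part in handing BiP to IRE1, went from 1.65, 1.58, 1.56 and 1.38 to 2.44, 2.40, 2.17 and 2.37, a change of 0.80 (SE 0.15, adjusted p 0.00589). In both genes every KO array lay above every control. GRP94, the ER's Hsp90, is encoded by Hsp90b1, which went from 4.38, 4.55, 4.58 and 4.52 to 5.32, 5.23, 5.16 and 5.44, a change of 0.78 (SE 0.15, adjusted p 0.0065). Dnajb11, a BiP cochaperone, changed by 0.62 (SE 0.12, adjusted p 0.0059). The 3 genes of this group that did not pass were Sil1, another BiP exchange factor (0.09), Dnajc10, a J-domain reductase (-0.02), and Sdf2 (-0.11). For Dnajc10 both dimmer probes gave 0.28 (SE 0.12) and 0.33 (SE 0.20), and neither passed with p-values adjusted over all probes.

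**Figure D2:**
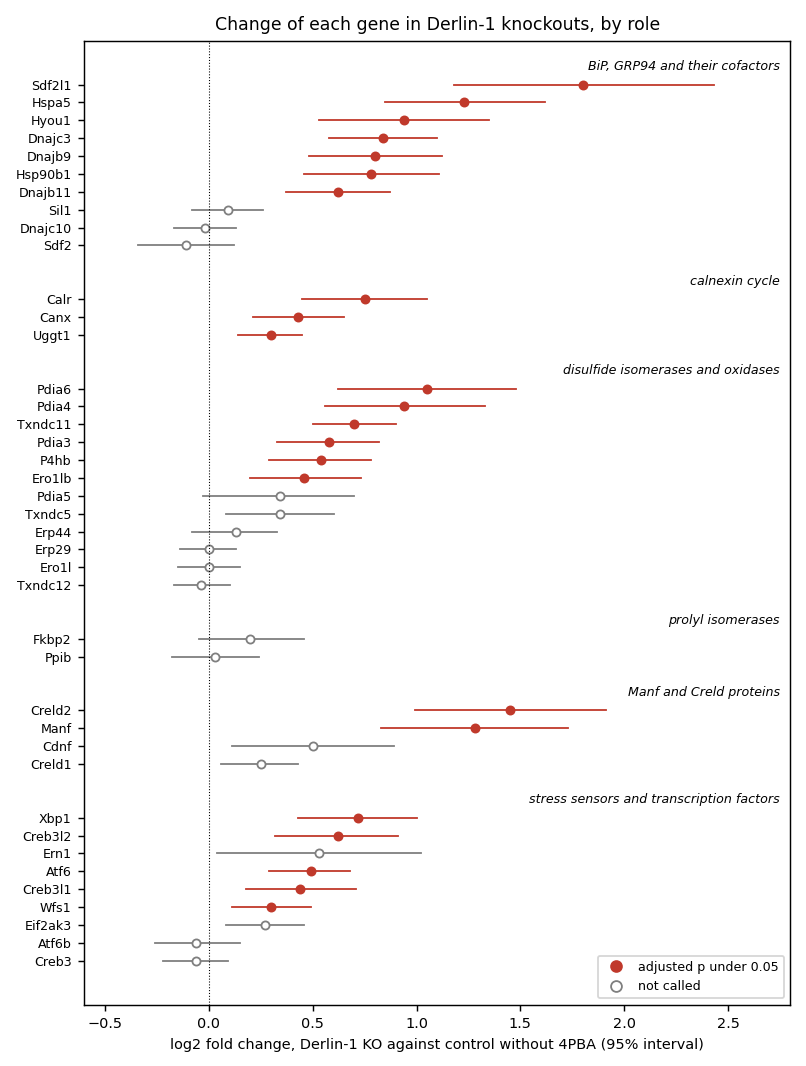
Log2 fold change of each gene in Derlin-1 KO against control arrays without 4PBA (4 arrays against 4), with its 95% interval, grouped by role and sorted within each group; filled red points passed at an adjusted p under 0.05. Sdf2l1 (1.80), Creld2 (1.45), Manf (1.28), Hspa5 (1.23) and Pdia6 (1.05) lie furthest to the right, and no gene passed as lower.

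In the calnexin cycle all 3 genes rose, with a median of 0.43. Calreticulin, Calr, had 3.03, 3.28, 3.33 and 3.49 in controls and 3.96, 3.78, 4.03 and 4.37 in KO arrays, with no overlap, and changed by 0.75 (SE 0.14, adjusted p 0.0058). Its membrane-bound relative Canx changed by 0.43 (SE 0.10, adjusted p 0.0183), from 4.65, 4.59, 4.60 and 4.66 to 5.28, 5.13, 4.79 and 5.01. Uggt1, which checks the fold of a glycoprotein and sends it back to both lectins, changed by 0.30 (SE 0.07, adjusted p 0.0182). It is a small shift, from 1.89, 1.75, 1.82 and 1.75 in controls to between 1.99 and 2.20 in KO arrays, without overlap.

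Of the 12 disulfide isomerases and oxidases 6 rose, and the group's median was 0.40. Pdia6, which also reduces the disulfide that keeps IRE1 active, had 3.86, 4.01, 3.57 and 3.43 in controls and 5.11, 4.84, 4.28 and 4.83 in KO arrays, a change of 1.05 (SE 0.20, 2.07-fold, adjusted p 0.0064). Pdia4 changed by 0.94 (SE 0.18, adjusted p 0.00642), from -1.41, -1.76, -0.66 and -1.19 to -0.46, -0.63, -0.39 and 0.23. The slides differed in the level of both genes, but every KO array lay above every control.

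Txndc11, a thioredoxin-domain protein of the ER membrane, had the lowest adjusted p of the 40 genes: it went from 2.09, 1.97, 2.22 and 2.35 to 2.64, 2.56, 3.15 and 3.10, a change of 0.70 (SE 0.09, adjusted p 0.00203). Pdia3, the isomerase that works with calnexin and calreticulin, changed by 0.58 (SE 0.11, adjusted p 0.00729), and its second probe by 0.60. Its levels were 0.80, 0.97, 1.78 and 1.68 in controls and 1.67, 1.49, 1.98 and 2.40 in KO arrays. These ranges overlap across slides, with Pdia3 higher on the lettered slide in both genotypes, and within each slide the KO arrays lay above the controls. The cause of that gap between slides was not tested. P4hb, the founding protein disulfide isomerase, changed by 0.54 (SE 0.12, adjusted p 0.0108), from 1.15, 1.28, 1.63 and 1.26 to 1.73, 1.72, 2.07 and 1.95.

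The oxidases Ero1l and Ero1lb return isomerases to their oxidised form. Ero1lb, known from insulin-producing cells, changed by 0.46 (SE 0.12, adjusted p 0.0302), with -3.51, -3.87, -3.17 and -3.08 in controls and -3.16, -3.11, -3.01 and -2.50 in KO arrays. Ero1l had 1.58, 1.60, 1.49 and 1.65 in controls and 1.56, 1.51, 1.61 and 1.63 in KO arrays, a change of 0.00 (95% interval -0.15 to 0.15). The intervals of Ero1lb (0.20 to 0.73) and Ero1l do not overlap, and the difference between the genes was not tested. The 5 other genes of the group that did not pass were Pdia5 (0.34), Txndc5 (0.34, which passed in 3 of 36 settings), Erp44 (0.13), Erp29 (0.00) and Txndc12 (-0.04). Neither prolyl isomerase passed: Fkbp2 changed by 0.20 (adjusted p 0.302) and Ppib, also called cyclophilin B, by 0.03 (adjusted p 0.895).

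Manf, a secreted neurotrophic factor that also stabilises BiP bound to its clients, had 1.11, 1.41, 1.36 and 1.07 in controls and 2.69, 2.39, 2.19 and 2.79 in KO arrays. It changed by 1.28 (SE 0.21, 2.42-fold, adjusted p 0.00346), and its second probe by 1.34. Its relative Cdnf changed by 0.50 (SE 0.18, adjusted p 0.0943), with -4.36, -5.12, -4.41 and -4.93 in controls and -4.41, -3.98, -4.09 and -4.35 in KO arrays, which overlap; it passed without the control array vehicle 1 (0.69, adjusted p 0.0332). Creld2, an ER protein with thioredoxin-like activity, had 2.52, 2.63, 2.94 and 2.95 in controls and 4.09, 3.89, 4.13 and 4.72 in KO arrays, a change of 1.45 (SE 0.22, 2.73-fold, adjusted p 0.00242). The gap between the lowest KO array and the highest control was wider for Creld2 and Manf than the spread within either group. Creld1 had 0.79, 0.83, 1.25 and 1.29 in controls and 1.16, 1.1, 1.26 and 1.62 in KO arrays, which overlap, a change of 0.25 (SE 0.09, adjusted p 0.0883); it passed without the untreated KO array a (0.33, adjusted p 0.0486). Sdf2, the relative of Sdf2l1, had 4.29, 4.18, 4.20 and 3.73 in controls and 4.24, 4.29, 3.65 and 3.79 in KO arrays, which overlap. The differences within these 3 pairs of relatives were not tested.

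Among the sensors Atf6 rose. Ern1, which encodes IRE1, did not pass in any of 36 settings, and Eif2ak3, which encodes PERK, missed the threshold narrowly and passed in 5 of 36. Atf6 went from -0.30, -0.50, -0.66 and -0.50 to 0.08, -0.05, 0.10 and -0.14, without overlap, a change of 0.49 (SE 0.09, 1.40-fold, adjusted p 0.00589). Its relative Atf6b had -1.03, -1.08, -0.08 and -0.31 in controls and -0.85, -1.10, -0.53 and -0.26 in KO arrays, a change of -0.06 (95% interval -0.26 to 0.15). Eif2ak3 had 0.74, 0.73, 0.29 and 0.12 in controls and 0.95, 0.91, 0.60 and 0.49 in KO arrays, a change of 0.27 (SE 0.09, adjusted p 0.0631). On each slide its KO arrays lay above its controls. With the same change of 0.27 it passed when array a or array b of the lettered Derlin-1 KO with 4PBA was left out (adjusted p 0.037 in each), when b and the library labelled Derlin-2 KO vehicle 1 were both left out (adjusted p 0.0465) and with the replicate number as a block (adjusted p 0.0283), and it passed under quantile normalization at 0.29 (adjusted p 0.0489). The differences between Atf6, Ern1 and Eif2ak3 were not tested. Ern1 was dim and scattered, with -3.24, -3.33, -3.44 and -3.26 in controls and -3.28, -2.44, -2.49 and -2.95 in KO arrays, a change of 0.53 (SE 0.23, adjusted p 0.154).

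Xbp1, whose transcript IRE1 splices, had 4.25, 4.46, 4.14 and 4.12 in controls and 5.21, 4.96, 4.70 and 4.97 in KO arrays. All KO arrays lay above all controls, and the change was 0.72 (SE 0.13, 1.64-fold, adjusted p 0.00566); its 2 other probes gave 0.85 and 0.92. The arrays were read here for total Xbp1, and splicing was not analysed. The CREB3 family are membrane-bound transcription factors that are cut like ATF6. Creb3l2 went from -3.32, -3.29, -3.16 and -3.41 to -2.52, -2.86, -3.02 and -2.32, a change of 0.62 (SE 0.14, adjusted p 0.0135). Creb3l1 went from -0.97, -0.84, -1.14 and -0.85 to -0.81, -0.63, -0.14 and -0.44, a change of 0.44 (SE 0.12, adjusted p 0.0329). In both genes all KO arrays lay above all controls, while Creb3 changed by -0.06 (adjusted p 0.632). Wfs1, an ER membrane protein mutated in Wolfram syndrome, went from 1.76, 1.86, 1.98 and 2.07 to 2.15, 2.18, 2.22 and 2.34, a change of 0.30 (SE 0.09, adjusted p 0.0423). Wfs1 was the least steady call, lost in 22 of 36 alternative settings; Ero1lb was lost in 11, Creb3l1 in 10, Canx in 7 and Uggt1 in 6. With p-values adjusted over all 38110 probes in place of genes, Wfs1 (adjusted p 0.0733), Creb3l1 (adjusted p 0.0559) and Ero1lb (adjusted p 0.0512) did not pass.

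**Figure D3:**
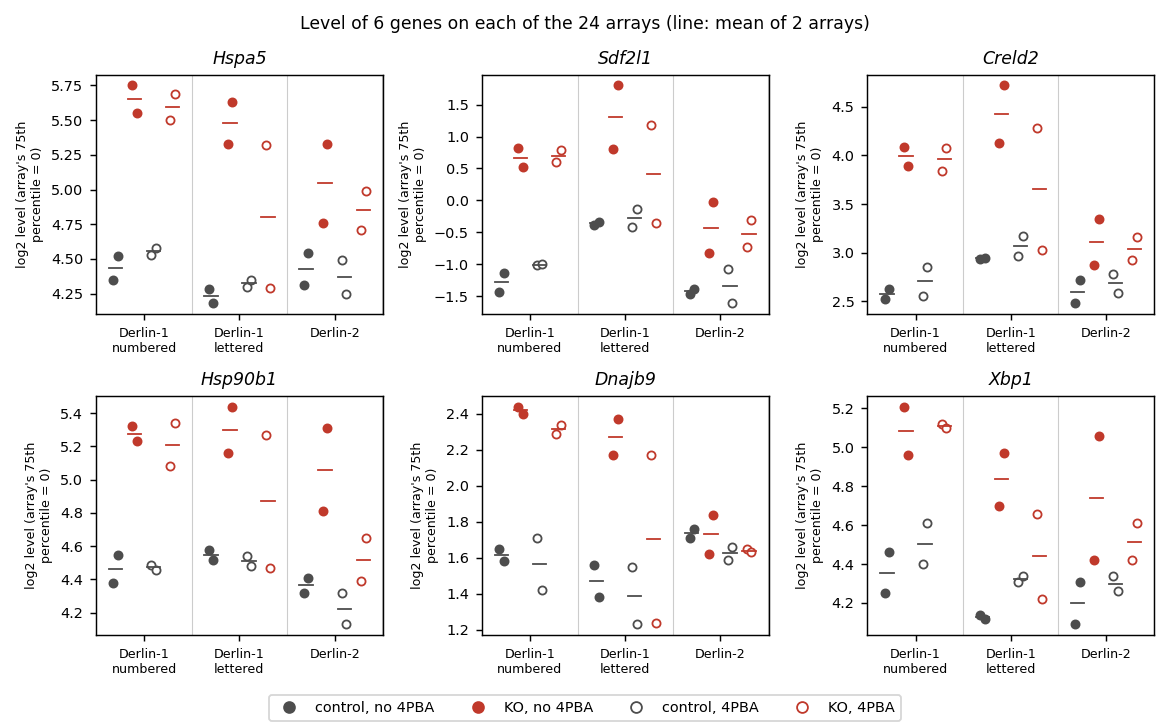
Level of 6 genes on each array (log2 intensity with the array's 75th percentile at 0), by series and line; red marks KO, grey marks controls, open circles mark 4PBA, and short lines are means of 2 arrays. For Hspa5 the 4 Derlin-1 KO arrays without 4PBA lie between 5.33 and 5.75 and the open circle labelled Derlin-1 KO 4PBA b lies at 4.29, while Dnajb9 in the Derlin-2 line shows KO and control arrays at like levels.

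The genes with the ERSE printed above were all in this set of 23. Their 8 changes ranged from 0.43 (Canx) to 1.45 (Creld2), with a median of 0.81. Of the 26 other genes with a window, 11 rose and 15 did not pass, with a median of 0.32 and a range from -0.11 (Sdf2) to 1.80 (Sdf2l1). Only exact matches within 250 bases before the start were counted. An element that differs by a base or lies elsewhere was not seen, so these genes cannot be said to lack one. The element was described in promoters of ER chaperone genes, so its share among these genes is not independent of how they were named. Outside the 40 genes, 11 genes with the element were tested, of which 4 rose (Derl3 by 2.13, Syvn1 by 0.34, Alg12 by 0.28 and Hnrnpa3 by 0.26) and none fell, beside 5.26% of all genes that rose. Of 3 other motifs searched on both strands, ATTGGNCCACG (ERSE-II, 0.037% of all genes) and TGACGTCA (the cyclic AMP response element, 1.77%) were in none of the 34 genes. TGACGTGG, the core of the element bound by XBP1 (0.603% of all genes), was found before Txndc11 and Txndc5, of which Txndc11 rose. Hyou1, Sil1, Erp29, Manf, Atf6 and Creb3l1 were not matched to a window.

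**Figure D4:**
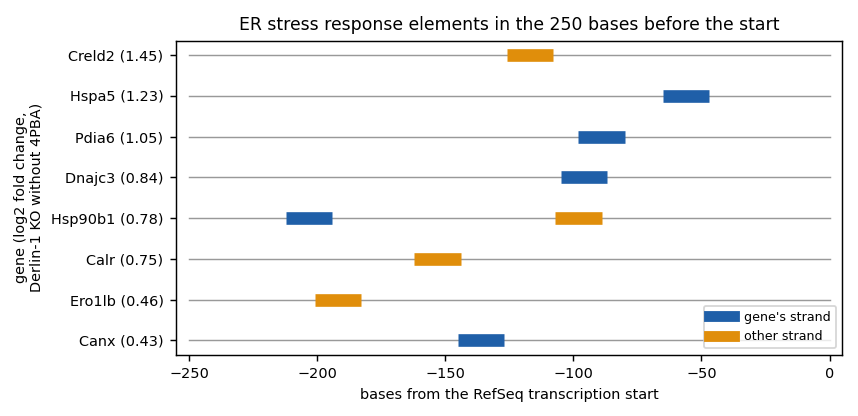
Position of each ERSE relative to the RefSeq start of transcription (bases, start at 0) in the 8 genes that hold one within 250 bases, sorted by the log2 fold change in Derlin-1 KO arrays without 4PBA given in brackets; blue lies on the gene's strand and orange on the other. The first base of an element lies between -212 (Hsp90b1) and -65 (Hspa5), on either strand.

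Neighbouring parts of the ER pathway were counted in the same comparison from lists of named genes; over all genes 5.26% rose and 10.6% passed in either direction. Of 29 genes for ER translocation, glycosylation and export 10 rose and none fell, with a median of 0.21. They included Sec24d, a coat protein of export vesicles (1.03), Stt3a, Ostc and Ddost of the oligosaccharyltransferase that adds sugar chains (0.54, 0.44 and 0.39), and Sec61b of the translocation channel (0.49). Of 22 genes for ER-associated degradation 7 rose and 1 fell, with a median of 0.07; Herpud1 (1.33) and Edem1 (0.95) rose and Vcp changed by -0.39. Of 12 genes of the ATF4 and CHOP branch downstream of PERK 9 rose, with a median of 1.18. Of 16 chaperones of the cytosol and mitochondria 1 rose (6.25%, near the share of all genes), Hspa9 (0.39), a mitochondrial Hsp70, and none fell, with a median of -0.14. The differences between the lists were not tested. Hspa8 and Hsp90aa1, the constitutive Hsp70 and the stress-inducible Hsp90 of the cytosol, changed by -0.09 and -0.14.

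Markers of cell types moved in the same comparison. In bulk tissue fewer cells of a type and less RNA per cell cannot be told apart. Of 9 microglia genes 7 rose, with a median of 1.43, and their mean level was 0.77 to 1.16 in the 4 KO arrays and -0.32 to 0.06 in the 4 controls. Of 8 granule neuron genes 4 fell, with a median of -0.32. Of 8 Purkinje cell genes 1 fell (Gad1) and of 7 astrocyte and Bergmann glia genes 1 rose (Gfap), which are 12.5% and 14.3%, near the 10.6% of all genes that passed. None of 7 oligodendrocyte, 6 endothelial or 6 choroid plexus genes passed. The choroid plexus, a secretory tissue beside the cerebellum, differed widely between arrays of a group: its mean level was -0.48 and 3.01 in the vehicle KO arrays, 1.99 and -1.77 in the untreated KO arrays and -0.80 to 2.37 in the 4 controls, and its median change was -0.69. Plasma cells, which hold much of this machinery, were followed through 6 genes, of which 4 could be measured. Their mean level was -3.99 to -3.33 in KO arrays and -4.55 to -3.78 in controls. Derl3 rose (2.13), Sdc1 fell (-1.12), and Jchain (1.13) and Prdm1 (0.53) did not pass. Derl3 is also counted above under ER-associated degradation, so this mean is not a separate measure of plasma cells. The part of any of these cell types in the changes of the 40 genes was not tested.

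Under 4PBA none of the 40 genes passed in Derlin-1 KO against control arrays (0.0472% of all genes did), and 21 had an unadjusted p under 0.05 as higher, beside 5.42% of all genes. The median was 0.27. This rests on 1 array. On the library labelled Derlin-1 KO 4PBA b the median of the 40 genes was -0.04, and on the other 3 it was 0.40, 0.40 and 0.37. Hspa5, for example, had 5.50, 5.69 and 5.32 on those 3 arrays and 4.29 on array b, beside 4.30 to 4.58 in the controls with 4PBA. Sdf2l1 had 0.60, 0.79 and 1.18 on those 3 and -0.35 on array b. The microglia mean was 0.61, 0.80 and 0.92 on those 3 and -0.25 on array b. The granule neuron mean was 4.86 on array b and 4.39 on the other lettered KO array with 4PBA. It was 4.83 and 4.76 in the lettered controls with 4PBA.

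Without that array 18 of the 40 genes rose in Derlin-1 KO cerebellum under 4PBA, while 3.51% of all genes rose, and the median of the 40 was 0.36. The changes were 1.58 for Sdf2l1 (SE 0.24, adjusted p 0.00193), 1.23 for Creld2 (SE 0.16, adjusted p 0.000563), 1.07 for Manf (SE 0.18, adjusted p 0.00353) and 1.02 for Hspa5 (SE 0.14, adjusted p 0.000894). The 14 others were Hyou1, Hsp90b1, Dnajb9, Dnajc3, Dnajb11, Calr, Canx, Pdia3, Pdia4, Pdia6, P4hb, Txndc11, Ero1lb and Wfs1. The lone lettered KO array with 4PBA is assumed in this fit to vary like the other groups. Array b was singled out by the same response that is counted here, so the rise from 0 to 18 follows in part from leaving it out and is a description, not a test of the remaining arrays.

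Within Derlin-1 KO mice, 4PBA changed none of the 40 genes at an adjusted p under 0.05 in limma (0.0354% of all genes passed). The median was -0.19, 33 of the 40 were negative, and 6 had an unadjusted p under 0.05, all lower: Atf6, Dnajc3, Dnajb9, Txndc11, Creb3l1 and Eif2ak3. Over all genes 9004 of 16934 were negative and 4.54% were lower at an unadjusted p under 0.05. Without the library labelled Derlin-1 KO 4PBA b the median was -0.05 with 32 negative. Leaving out the other array of that group, a, left b as the lone lettered KO array with 4PBA and gave 4 genes that passed as lower, where 1.14% of all genes passed: Dnajb9 (-0.57), Dnajc3 (-0.50), Creld2 (-0.71) and Dnajb11 (-0.40). The count therefore turned on which of both arrays was kept. The difference between the KO effect under 4PBA and that without it passed for none of the 40 genes (0.0118% of all genes; 3 of the 40 were lower at an unadjusted p under 0.05, beside 1.82% of all genes), with a median of -0.22. For Hspa5 that difference was -0.47 (95% interval -1.02 to 0.08) and for Sdf2l1 -0.60 (95% interval -1.49 to 0.29). Without array b the median was -0.04, and the difference was -0.22 for Hspa5 (SE 0.19) and -0.22 for Sdf2l1 (SE 0.33).

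In Derlin-1 controls 4PBA changed none of the 40 genes (0.0295% of all genes passed), none had an unadjusted p under 0.05, beside 2.10% of all genes, and the median was 0.02. In Derlin-2 controls none passed (0.130% of all genes did), 2 had an unadjusted p under 0.05, Sil1 and Creb3, both lower, beside 3.46% of all genes, and the median was -0.05, beside -0.04 over all genes. Hspa5 in Derlin-1 controls, for instance, had 4.35, 4.52, 4.28 and 4.18 without and 4.53, 4.58, 4.30 and 4.35 with 4PBA, a difference of 0.11 within the spread of the arrays. Within Derlin-2 KO mice none passed with 4PBA either (0.136% of all genes did), and 4 had an unadjusted p under 0.05, all lower: Hsp90b1 (-0.54), Fkbp2 (-0.47), Dnajb11 (-0.37) and Erp29 (-0.26). Over all genes 6.30% were lower at that threshold, a share near that of the 40. The median was -0.12, beside -0.06 over all genes; without the library labelled Derlin-2 KO vehicle 1 it was -0.18 and none passed, while 0.487% of all genes did.

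In Derlin-2 KO against control arrays with vehicle none of the 40 genes passed (0.118% of all genes did); 9 had an unadjusted p under 0.05 as higher, beside 3.86% of all genes, and 1, Creb3, as lower, beside 4.15%. The median was 0.14, beside -0.01 over all genes, and on 21 of the 40 genes both KO arrays lay above both controls, which held for 21.7% of all genes. The 9 genes were Sdf2l1 (0.99), Pdia6 (0.75), Hsp90b1 (0.70), Calr (0.63), Hspa5 (0.62), Xbp1 (0.54), Pdia3 (0.51), Canx (0.43) and Creld1 (0.40). Hspa5 had 4.31 and 4.54 in controls and 4.76 and 5.33 in KO arrays, and Hsp90b1 had 4.32 and 4.41 against 4.81 and 5.31. In both genes the higher value came from array 2, and array 1, the one with a control's Derl2 level, still lay above the controls. Creb3 changed by -0.41 (unadjusted p 0.00141, adjusted p 0.237) on its brighter probe and by -0.05 on its other probe.

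Without the library labelled Derlin-2 KO vehicle 1 the median was 0.21, the changes were 1.40 for Sdf2l1, 0.94 for Hsp90b1, 0.91 for Hspa5 and 0.86 for Xbp1, and none of the 40 passed (lowest adjusted p 0.069, Xbp1), while 0.487% of all genes did. With the library labelled Derlin-1 KO 4PBA b left out too, 3 passed (0.552% of all genes did): Hsp90b1 (adjusted p 0.0194), Xbp1 (adjusted p 0.032) and Hspa5 (adjusted p 0.039). The KO arm is then 1 array against 2 controls, and its spread is assumed to be that of the other groups, from which the gap between arrays a and b is gone. Without the library labelled Derlin-2 KO vehicle 2 the median was 0.10 and none passed, while 0.118% of all genes did. Under 4PBA none of the 40 passed in Derlin-2 KO against control arrays (0.136% of all genes did), none had an unadjusted p under 0.05, beside 4.70% of all genes, and the median was 0.05. There 17 of the 40 had both KO arrays above both controls, which held for 14.0% of all genes. Sdf2l1, the furthest of them, had -1.08 and -1.61 in controls and -0.73 and -0.31 in KO arrays with 4PBA, a change of 0.83. The Derlin-2 effect under 4PBA minus that with vehicle passed for none of the 40 (0.0768% of all genes), and 1, Creb3, was higher at an unadjusted p under 0.05, beside 2.58% of all genes. Its median over the 40 was -0.13 with and without the library labelled Derlin-2 KO vehicle 1.

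**Figure D5:**
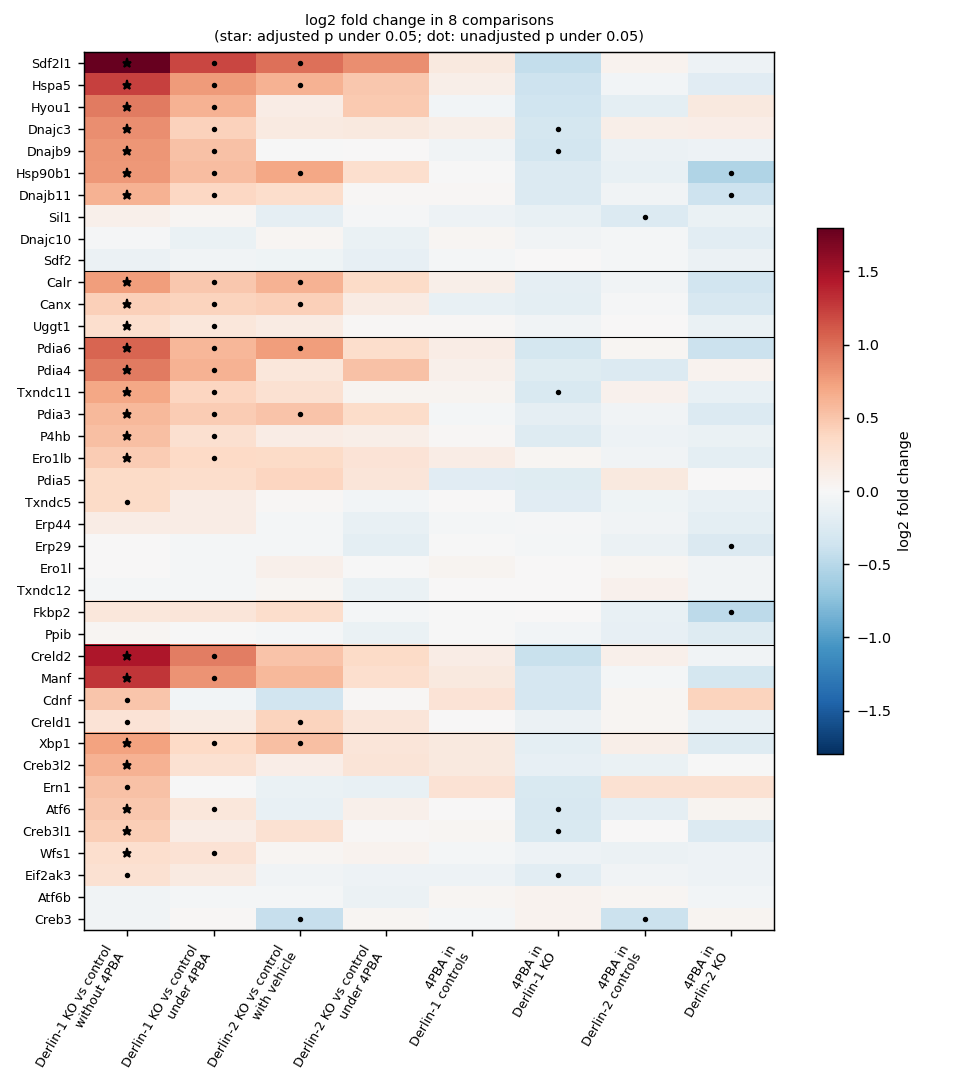
Log2 fold change of each of the 40 genes (rows, by role) in 8 comparisons (columns); red is higher and blue lower in the first-named group or with 4PBA, stars mark an adjusted p under 0.05 and dots an unadjusted p under 0.05. All 23 stars are in the first column, and the second column, which includes the library labelled Derlin-1 KO 4PBA b, holds 21 dots and no star.

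The lines were set side by side without 4PBA. Of the 23 genes that rose in Derlin-1 KO arrays, 21 were positive in the Derlin-2 line, all but Dnajb9 (-0.01) and Atf6 (-0.13), with a median of 0.31. Among all 890 genes that rose in Derlin-1 KO arrays 59.2% were positive in the Derlin-2 line, with a median of 0.06. Of the 17 genes that did not pass in Derlin-1 KO arrays 7 were positive in the Derlin-2 line, with a median of -0.04. Without the library labelled Derlin-2 KO vehicle 1, 22 of the 23 were positive, all but Atf6 (-0.27), with a median of 0.39, beside 57.4% of the 890 genes. Some genes had like values in both lines: Hsp90b1 (0.78 and 0.70), Canx (0.43 and 0.43), Pdia3 (0.58 and 0.51) and Calr (0.75 and 0.63). On the second probe of Canx the values were 0.63 and 0.36, and on that of Pdia3 0.60 and 0.46. For these the 95% interval of the difference ran from -0.47 to 0.65 for Hsp90b1, -0.38 to 0.38 for Canx, -0.36 to 0.48 for Pdia3 and -0.39 to 0.64 for Calr. Without that library the difference was -0.16 for Hsp90b1 (SE 0.28), -0.15 for Canx (SE 0.20), -0.05 for Pdia3 (SE 0.23) and 0.01 for Calr (SE 0.28).

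For other genes the values lay further apart. Dnajb9 changed by 0.80 in the Derlin-1 and -0.01 in the Derlin-2 line, where its levels were 1.71 and 1.76 in controls and 1.62 and 1.84 in KO arrays. The corresponding changes were 0.84 and 0.16 for Dnajc3, 0.49 and -0.13 for Atf6, 0.94 and 0.13 for Hyou1, and 0.94 and 0.21 for Pdia4. Without the library labelled Derlin-2 KO vehicle 1 the differences between the lines were 0.70 for Dnajb9, 0.76 for Dnajc3, 0.75 for Atf6, 0.70 for Hyou1 and 0.62 for Pdia4, and none of the 40 passed, while 0.422% of all genes did. The difference between the lines passed for none of the 40 genes (0.065% of all genes did), and 10 had an unadjusted p under 0.05, all with the larger value in the Derlin-1 line, beside 7.36% of all genes in that direction. The lowest was that of Atf6, 0.62 (95% interval 0.28 to 0.95, adjusted p 0.128). When array a or array b of the lettered Derlin-1 KO with 4PBA was left out, which removes the gap between them from the shared spread, Atf6 (adjusted p 0.0427), Dnajb9 (adjusted p 0.0184) and Dnajc3 (adjusted p 0.0249) passed, with 2.03% of all genes; their differences were 0.62, 0.81 and 0.68. With the libraries labelled Derlin-1 KO 4PBA b and Derlin-2 KO vehicle 1 both left out, which leaves 1 Derlin-2 KO array with vehicle, Atf6 (0.75, adjusted p 0.028) and Dnajc3 (0.76, adjusted p 0.0316) passed, with 1.66% of all genes.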

How the data were processed

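Cy3-labelled total RNA was hybridised to single-colour Agilent arrays, and spots were read with Agilent Feature Extraction 10.7.1.1, per the submitters' processing notes. The deposited value used was the processed signal, a linear intensity that the authors' scanner software had corrected for background, per the file headers. Control spots were left out, outlier-flagged spots (52 to 637 per array) were set to missing, and no spot was saturated. From each log2 intensity the 75th percentile of its array was subtracted. A probe entered if both arrays of some group had it well above background, and the brightest such probe stood for its gene. Symbols came from a RefSeq gene table through the probe's transcript.

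All 24 arrays entered 1 fit with 12 group means (limma 3.58.1, R 4.3.3, data.table version 1.17.8; 12 residual degrees of freedom). Tests were two-sided with Benjamini-Hochberg adjustment over all genes of a comparison; the threshold for a call was 0.05. Adjusted p-values in the text come from limma. The number of arrays limits the precision: the median SE was 0.11 in Derlin-1 and 0.15 in Derlin-2 comparisons. The procedure was tested on simulated data. The 40 genes, the pathway and marker lists and the motifs were chosen with earlier results of these data known. Genes were described in full where they led their role, were sensors, or formed a pair of relatives of which 1 was called. Alternatives were other scalings, filters and probe summaries, each array left out, each series alone and a replicate block. The background alternative used median spot signals, since mean signals were not used here. The labels do not say whether equal replicate numbers mark paired samples, and the main fit assumed no pairing. Deviations of same-numbered arrays correlated between -0.16 and 0.40, which does not settle it.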

Additional observations from a re-analysis of the deposited data

How the results depend on the processing

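The limits are the 2 arrays per group, the 2 arrays doubted above and the tie between slide position and group. Of the 23 genes called in Derlin-1 KO against control without 4PBA, 14 were called under median centring (7.55% of all genes), which moved the median of all genes to -0.13 and that of the 40 genes to 0.35. The lettered series alone gave 11 (3.54%), and the numbered series alone gave 0, where 2 of 16935 genes passed. All 23 genes stayed positive in each of the 36 settings run. The other scalings, filters and probe summaries gave 21 to 24 (5.48% to 12.9%), the fit within the arrays of the line gave 16 (4.07%), and adjustment over all probes, chosen after seeing the data, gave 20 (5.09% of probes) and none in the other comparisons. A fit with the replicate number as a block within each slide gave 24 genes (13.4%), of which 22 were shared with the 23, and no call in the other comparisons. Leaving out 1 array at a time gave 17 to 24 genes in that comparison (3.86% to 16.5% of all genes), 0 to 18 in Derlin-1 KO against control under 4PBA, 0 to 4 for 4PBA in Derlin-1 KO, 0 to 3 for the difference between the lines, and 0 in the 8 other comparisons. The fit without both doubted arrays, chosen after seeing the data, gave 24 (11.9%), 18, 3 (Derlin-2 KO against control with vehicle), 1 (Hsp90b1, 4PBA in Derlin-2 KO, -0.78, adjusted p 0.0481) and 2 (the difference between the lines). The planned background correction on mean signals was run on median signals. The cause of each move was not tested.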
